A study of Rattus norvegicus and Mus musculus with 10 samples.

Results

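The rat cerebrospinal fluid (CSF) library held 7500 droplet barcodes, and 4348 of them (58.0%, 95% exact interval 56.8 to 59.1%) carried no cluster in the deposited annotation. They were chosen by the library suffix of the barcode and by their absence from the deposited cluster table. No expression value was read for this choice, but the 2 sides are not split independently of expression. Annotated cells of all rat libraries had 201 to 2498 genes and a mitochondrial share of at most 19.98%. The other 3152 CSF barcodes, annotated with leukocyte clusters, served as the comparison, and the 6 rat libraries together held 26301 barcodes. The study profiled leukocytes of brain border compartments of naive Lewis rats and of mouse dura, and 25 rats were used for the rat data. CSF cells were labelled as leukocytes from CSF and, unlike the sorted cells of brain, pia, dura and choroid plexus, went into the droplets unsorted. Both sides came from 1 library of version 2 chemistry from untreated animals, and how many rats gave CSF, their age and their sex are not given in the sources used here. No test was therefore possible: intervals below are exact 95% intervals that cover counting error only, and unannotated barcodes are not replicates of each other.

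CSF is secreted by the choroid plexus, a folded sheet of ciliated epithelium in the brain ventricles whose cells devote much of their RNA to Ttr, the gene of transthyretin, a carrier of thyroid hormone and retinol. Healthy CSF holds few cells, mostly lymphocytes and monocytes. In droplet data each barcode is counted in unique molecular identifiers (UMIs), RNA released into the suspension is captured in every droplet, and droplets of damaged cells are known for few genes and a high mitochondrial share.

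Unannotated barcodes summed to 7086608 UMIs and annotated ones to 6885992, but per barcode the unannotated side had fewer UMIs and fewer genes. Their UMIs per barcode ran from 838 through a median of 1263 to 12592, against 839, 1909 and 9926 in annotated cells. Their genes per barcode ran from 85 through a median of 358 to 2791, against 305, 733.5 and 2478. Both ranges overlapped widely. The mitochondrial share had a median of 32.0% of a barcode's UMIs against 5.72%: annotated cells stopped at 19.98%, while unannotated barcodes reached 84.5%.

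Annotated cells of all 6 rat libraries had 201 to 2498 genes and a mitochondrial share of at most 19.98%. Of the unannotated CSF barcodes, 2489 (57.2%, 55.8 to 58.7%) had a mitochondrial share of 20% or more, 557 (12.8%, 11.8 to 13.8%) had 200 genes or fewer, 2 had 2500 genes or more, and 38 had both a high mitochondrial share and few genes. The remaining 1338 (30.8%, 29.4 to 32.2%) lay within all of these bounds, with a median of 1625.5 UMIs, 603.5 genes and a mitochondrial share of 4.84%. Just below the mitochondrial bound, at 18 to 20%, there were 38 unannotated barcodes, and just above it, at 20 to 22%, there were 56. How barcodes were chosen for annotation is not given in the sources used here. The labels state an average of 4384 ± 736 (SEM) rat cells per tissue used for analysis. All barcodes in the files averaged 4383.5 ± 735.6 (SEM, 6 libraries), and annotated barcodes averaged 3531 ± 372.

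**Figure D1:**
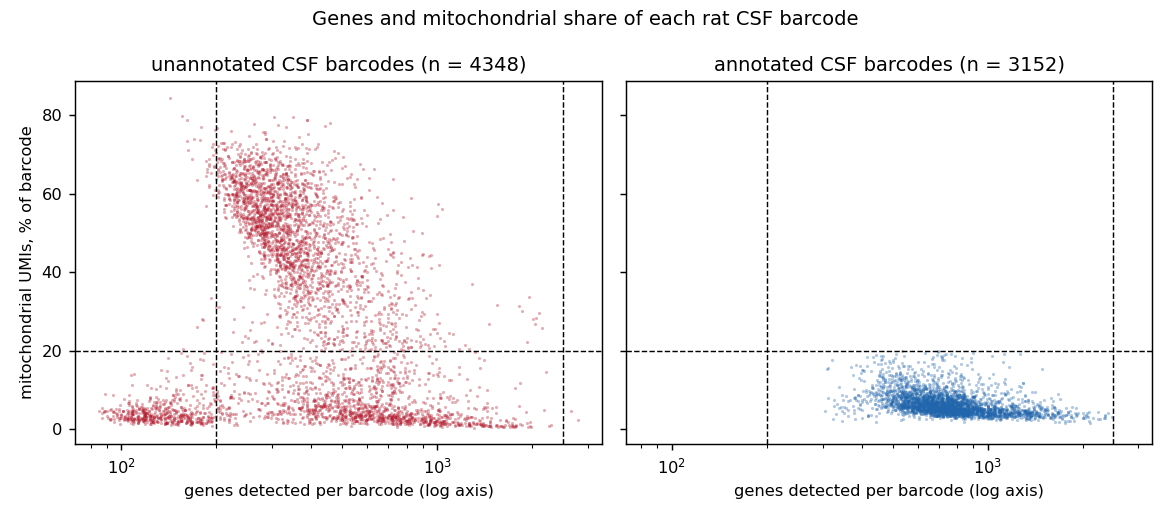
Genes detected (log axis) against the mitochondrial share of UMIs (percent) for each unannotated (left) and annotated (right) rat CSF barcode; dashed lines mark 200 and 2500 genes and a share of 20%. Unannotated barcodes form a cloud above the 20% line, a group left of 200 genes with a low share, and a group that overlaps the annotated cells.

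Ttr was the most abundant single gene of the choroid plexus list on both sides. Unannotated barcodes held 1039472 Ttr UMIs, or 14.7% of all their UMIs, and annotated cells held 137726, or 2.00%, a ratio of 7.33 (7.29 to 7.38) in CPM, each gene's UMIs scaled to a common total. Per barcode, the Ttr share ran from 0.19% through a median of 2.82% to 66.8% in unannotated barcodes, and from 0.32% through 1.59% to 40.6% in annotated cells. The sides overlapped over most of this range. A Ttr share of 10% or more occurred in 1091 unannotated barcodes (25.1%, 23.8 to 26.4%) and in 40 annotated cells (1.27%, 0.91 to 1.72%), and a share of 50% or more in 251 against 0.

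Presence of Ttr did not separate the sides. All 7500 CSF barcodes had at least 1 Ttr UMI, and after thinning each barcode to 250 UMIs, the expected share with a Ttr UMI was 97.9% (97.4 to 98.3%) for unannotated barcodes and 95.8% (95.04 to 96.5%) for annotated cells. In annotated CSF cells of the deposited cluster CD4 Tc, T cells that should lack the gene, it was 95.9% (94.8 to 96.8%), with a median depth of 2043 UMIs against 1263. A single Ttr UMI in this library was thus at the background level, and the share of UMIs is the measure used below. At the same thinned depth the share with a Ttr UMI was 40.2% in annotated cells of the choroid plexus library, 5.36% in pia, and 0.04% or less in annotated cells of dura, CNS and blood.

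The other genes of the choroid plexus epithelium list were higher with Ttr. Over all 10698 genes with at least 20 UMIs, 1982 (18.5%) were at least 2-fold higher in unannotated barcodes, 4415 (41.3%) were at least 2-fold lower, and the median log2 ratio was -0.69; a gene past 2-fold is called higher or lower from here on. Of the 26 choroid plexus genes tested, 26 were higher and 0 lower, with a median log2 ratio of 2.12. Igfbp2, an insulin-like growth factor binding protein, had 393 CPM in unannotated barcodes against 94.0 CPM in annotated cells, a ratio of 4.18 (3.84 to 4.56). Clic6, an intracellular chloride channel protein, had 309 against 51.8 CPM, a ratio of 5.96 (5.33 to 6.68). Calml4, a calmodulin-like protein, had 222 against 38.2 CPM, a ratio of 5.82 (5.10 to 6.65). Genes of cilia, which choroid plexus and ependymal cells both carry, were higher as well: 12 of 12 ependymal genes, with a median of 2.69. Among them Cfap126, a cilia and flagella protein, had 270 against 37.8 CPM, and Dynlrb2, a dynein light chain, 74.6 against 10.3 CPM. A list of motile cilia genes, which shares 4 of its 10 tested genes with the ependymal list, had 10 higher and a median of 2.82. In the leptomeningeal fibroblast list 4 of 7 genes were higher and 0 lower. Its largest part was Ptgds, prostaglandin D synthase, which choroid plexus epithelium also makes, at 922 against 146 CPM.

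Globin and other red cell genes were higher as well. Haemoglobin is the oxygen carrier of red blood cells, and reticulocytes still hold its messenger RNA. Globin genes made up 14.2% of the UMIs of unannotated barcodes and 0.14% of those of annotated cells, a ratio of 99.4 (97.5 to 101.4). On the unannotated side 409458 of these UMIs were of LOC103694857, which was counted as globin after its values were seen and whose identity the reference tables used here do not give. Without it and LOC103694855, also without a given identity, the shares were 8.41% and 0.0953%, a ratio of 88.3 (86.2 to 90.5). Of the 14 erythroid genes tested, 13 were higher and 0 lower, with a median log2 ratio of 6.42. An Hba-a2 model, an alpha globin, had 56651 against 638 CPM, a ratio of 88.8 (86.2 to 91.5), and reads may be split between the near-identical globin copies. Genes outside the globins moved with them: Alas2, the first enzyme of haem synthesis in red cells, had 744 UMIs against 4, a ratio of 181 (70.3 to 665). Ahsp, the chaperone of alpha globin, had 219 against 10 UMIs, and Slc4a1, the red cell anion exchanger, had 85 against 1, a ratio of 82.6 (14.4 to 3300). Lgals5, a galectin of rat reticulocytes, had 373 UMIs against 1, a ratio of 362 (64.7 to 14354). Globin made up at least 50% of the UMIs of 653 unannotated barcodes (15.02%, 14.0 to 16.1%) and of 0 of 3152 annotated cells, which allows a share of up to 0.0952% by the limit of 3 counts and 0.117% by the exact interval. Without the 2 unidentified symbols 282 unannotated barcodes and 0 annotated cells reached 50%, and 753 in place of 764 unannotated barcodes reached 10%.

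**Figure D2:**
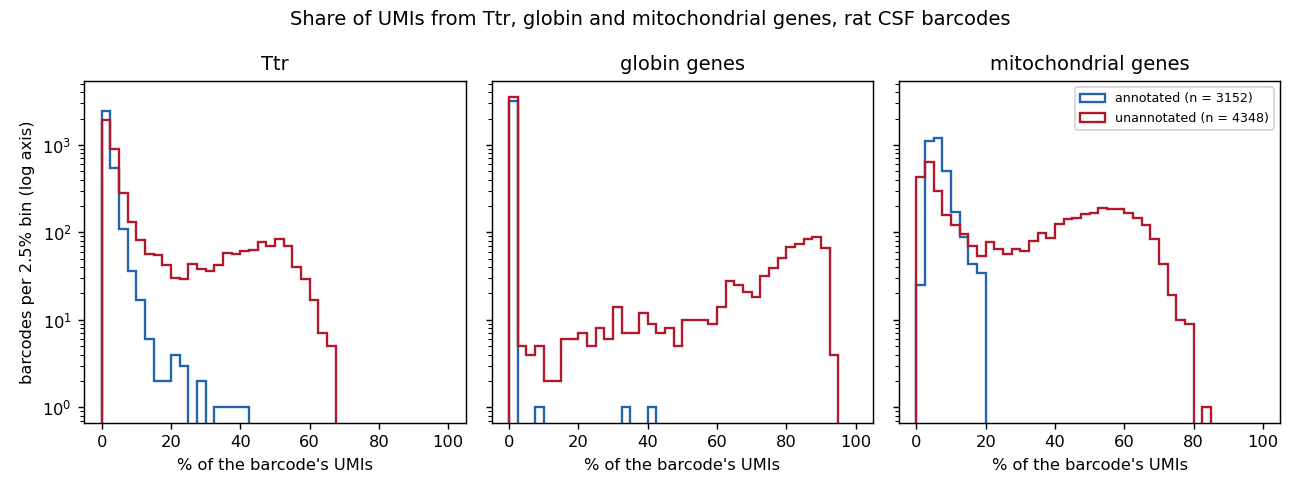
Barcodes per 2.5% bin (log axis) against the percent of a barcode's UMIs from Ttr, globin genes (LOC103694857 and LOC103694855 included) or mitochondrial genes, for 4348 unannotated and 3152 annotated rat CSF barcodes. Unannotated barcodes show a second maximum near 50% for Ttr, near 90% for globin and near 55% for mitochondrial genes, where annotated cells are absent.

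These 3 signals were mostly carried by different barcodes. A Ttr share of 10% or more without a high globin or mitochondrial share marked 864 unannotated barcodes (19.9%), a globin share of 10% or more alone marked 682 (15.7%), and a mitochondrial share of 20% or more alone marked 2251 (51.8%). High Ttr and high globin occurred together in 37 barcodes, high Ttr and a high mitochondrial share in 193, and 279 barcodes (6.42%) had none of the 3. In sum the 13 mitochondrial genes took 25.3% of UMIs against 5.87%, and 12 of 12 tested ones were higher, with a median log2 ratio of 2.03. This restates the bound on annotated cells: among the 1338 barcodes within the bounds, 0 of 12 were higher or lower, with a median of -0.18.

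Genes of brain tissue formed a further group. Of 14 neuron genes tested, 13 were higher and 1 lower, with a median of 2.77. Stmn2, a microtubule regulator of growing neurites, had 322 against 36.2 CPM, a ratio of 8.92 (7.82 to 10.2). Snap25, a synaptic vesicle fusion protein, had 270 against 24.8 CPM, a ratio of 10.9 (9.28 to 12.8), and Map2, a dendritic microtubule protein, 199 against 17.6 CPM. The lower one was Nrgn, neurogranin of forebrain neurons, with 12 against 48 UMIs. In the astrocyte list 7 of 9 genes were higher and 1, Cldn10, was lower, with 6 against 24 UMIs; the median was 1.63. Among the 1338 barcodes within the bounds only 2 of 9 astrocyte genes were higher and 2 lower, with a median of 0.11, and 8 of 13 neuron genes were higher. Over all genes of that comparison 1614 were higher and 3340 lower, with a median of -0.39. Over all unannotated barcodes Gfap, the intermediate filament of astrocytes, had 209 against 54.7 CPM, and Slc1a3, a glutamate transporter, 280 against 82.9 CPM. In the oligodendrocyte list 9 of 12 genes were higher and 1 lower. The lower one was Mal, a myelin protein that T cells also make, at 34.6 against 110 CPM. The 12 genes ranked highest by the bound of the ratio nearest to 0 also held the synaptic genes Syt4, at 56.6 against 2.47 CPM, Nptxr, at 21.6 against 0.73 CPM, and Grm4, at 41.8 against 2.32 CPM.

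Cerebellar genes were among those that were higher, in lists written after the values were seen, which are given as a description. Of 9 granule neuron genes 9 were higher, with a median of 3.70. Neurod1, a transcription factor of granule neurons, had 81.0 against 6.24 CPM, a ratio of 12.97 (9.51 to 18.1), and Gabra6, a receptor subunit typical of these cells, 41.6 against 2.47 CPM. Of 11 Purkinje cell genes 10 were higher, with a median of 1.96, below that of the neuron list. Among the 1338 barcodes within the bounds 1 of 10 Purkinje cell genes and 7 of 8 granule neuron genes were higher. Over all genes of that comparison 1614 were higher and 3340 lower, with a median of -0.39. Pcp2, Purkinje cell protein, had 1200 against 309 CPM and occurred in 2741 of 4348 unannotated barcodes and in 1401 of 3152 annotated cells, so these genes too were found widely on both sides. Their summed level was 3082 CPM in unannotated and 746 CPM in annotated CSF barcodes, against 5.40 to 48.2 CPM over both sides of the 5 other rat libraries. Of 10 forebrain neuron genes only 3 had enough UMIs. Ppp1r1b, a phosphatase inhibitor that is not limited to forebrain neurons, was higher with 1296 against 192 UMIs, and its source was not tested. Neurod6 was higher with 24 against 5, and Adora2a was lower with 27 against 157. Of a hindbrain Hox list only Hoxb4 was tested, with 20 against 23 UMIs.

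Most leukocyte genes were lower. The annotated side is made of barcodes that were given leukocyte clusters, so this direction follows largely from the annotation and is given as a description. Of the T cell genes 19 of 19 were lower, with a median log2 ratio of -3.29. Cd3g, a chain of the T cell receptor complex, had 58.0 against 568 CPM, which is 9.79-fold lower (8.84 to 10.9), and Lck, its proximal kinase, 26.1 against 314 CPM. Of the natural killer (NK) cell genes 13 of 13 were lower, with Nkg7, a granule protein, at 35.6 against 530 CPM, and of the B cell genes 11 of 12. The class II genes, which present antigen, were lower in 7 of 7 cases, with the invariant chain Cd74 at 270 against 5351 CPM, 19.8-fold lower (18.9 to 20.8), and RT1-Bb at 50.2 against 1352 CPM. In the monocyte and macrophage list 20 of 21 genes were lower: Lyz2, lysozyme, had 916 against 12119 CPM, 13.2-fold lower (12.9 to 13.6). Apoe, which astrocytes make as well, was only 3.37-fold lower (3.28 to 3.46). The neutrophil list had 9 of 10 lower, with S100a9 at 100.5 against 1813 CPM, and 1 higher, Lcn2, with 82 against 16 UMIs. Ms4a4a had 0 UMIs against 85, which is 29.2-fold lower with the floor of 3 counts over the group and at least 23.2-fold lower by the exact interval. Among border macrophage genes 7 of 8 were lower, among dendritic cell genes 6 of 6, among plasmacytoid dendritic cell genes 6 of 7 and among plasma cell genes 5 of 6.

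Some lists were less uniform. The microglia list had 8 of 10 genes lower, with a median of -2.27, yet its summed level was 1253 against 674 CPM. That sum rested on Sparc, a matrix protein that glia and vessels also make, with 8613 of the 8878 UMIs on the unannotated side; Tmem119 had 26 against 136 UMIs. The endothelial list split, with 3 genes higher, Cldn5, Slco1a4 and Flt1, and 5 lower of 11, and platelet genes with 2 higher and 1 lower of 3. Of the mural list only Myh11 was tested, with 65 against 7 UMIs; of the skeletal muscle list only Tnnt3, with 26 against 46; of the Schwann cell list no gene had 20 UMIs. Proliferation genes were lower in 15 of 16 cases, dissociation stress genes in 15 of 16, inflammatory genes in 10 of 10, and type I interferon response genes in 11 of 15 with 1 higher, Rsad2, at 111 against 11 UMIs. Ribosomal protein genes took 9.22% of UMIs against 31.0%, with 89 of 97 lower and 1 higher, Rpl39l, at 27 against 1 UMIs.

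**Figure D3:**
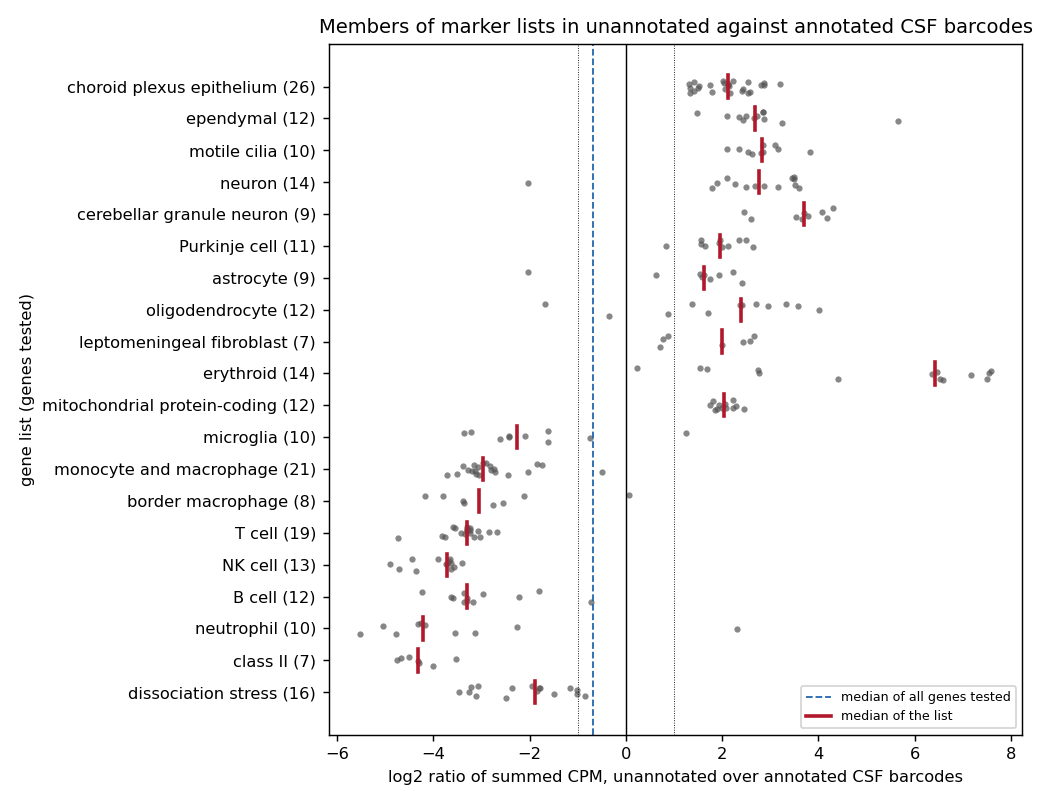
Log2 ratio of summed CPM, unannotated over annotated CSF barcodes, for each tested member (points) of 20 gene lists; red bars are list medians, the dashed line is the median of all genes tested (-0.69) and dotted lines mark 2-fold. Choroid plexus, cilia, neuronal, glial, red cell and mitochondrial lists lie to the right, leukocyte lists to the left.

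CPM makes each gene depend on the most abundant ones, and Ttr, globin and mitochondrial genes together took a large part of the unannotated UMIs. Of the 6397 genes (59.8%) past 2-fold, 31.0% were higher. With TMM scaling the all-gene median shifted by 0.60 to -0.09, and 50.7% of calls were higher. Without mitochondrial genes, globin genes and Ttr in the total it was 0.31, and 66.0% were higher. The T, NK and class II lists still had every tested gene lower under both scalings, and the choroid plexus and ependymal lists every tested gene higher. The endothelial list had a positive median only without those genes, at 0.32.

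To see with which cells the unannotated barcodes lie, all 7500 CSF barcodes were clustered together, which gave 23 clusters, numbered here by their unannotated barcodes. The library is labelled as leukocytes, yet 11 clusters with fewer than 10 annotated cells held 3993 of the 4348 unannotated barcodes. The other 12 clusters held 3125 of the 3152 annotated cells and 355 unannotated barcodes (8.16%, 7.37 to 9.02%). That share depends on the clustering: at the coarser Leiden resolution 0.5 it was 31.8%, where 1 cluster of 1000 unannotated barcodes held 10 annotated cells. Leading genes below describe how clusters are defined and are not findings about them.

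**Figure D4:**
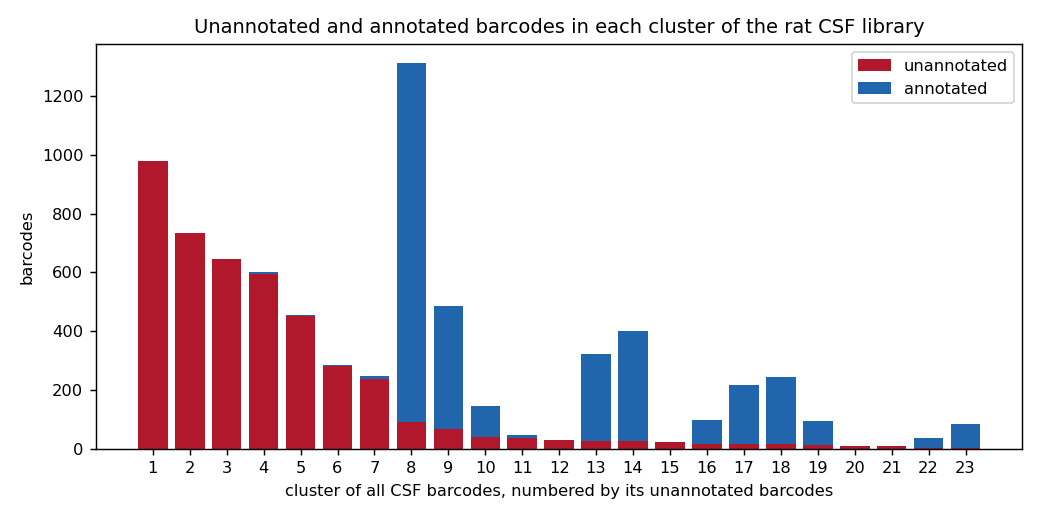
Number of unannotated (red) and annotated (blue) barcodes, stacked, in each of the 23 clusters of the rat CSF library. Clusters 1 to 7 hold almost only unannotated barcodes (239 to 977 each), and cluster 8 holds 1219 annotated and 92 unannotated ones.

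Clusters 4 and 5 were rich in Ttr and held 1046 unannotated barcodes (24.1%, 22.8 to 25.4%), 951 of which lay within the bounds of genes and mitochondrial share. They thus held 71.1% (68.6 to 73.5%) of all unannotated barcodes within the bounds. Cluster 4 (596 unannotated, 6 annotated) was choroid plexus epithelium-like: Ttr took 40.6% of its UMIs, 28 of 29 listed genes had at least 3 UMIs, and Ogn, Wls and Enpp2, a secreted lysophospholipase, were among its leading genes. The count of listed genes does not set cluster 4 apart, as cluster 1 also had 144 Clic6, 62 Folr1 and 46 Enpp2 UMIs. In CPM Clic6 was at 589 in cluster 4 and 128 in cluster 1, and Folr1 at 467 and 55.1. Cluster 5 (450 unannotated, 6 annotated) had Ttr at 39.6% of UMIs and 26 of 29 listed genes, but its leading genes were those of cilia, Ccdc40, Cfap44, Kif9 and Spef2, so it is left without a cell type name. It was deeper than cluster 4, with a median of 2137 against 1166 UMIs. Msx1, a homeobox factor of choroid plexus, had 629 CPM in cluster 5 and 393 CPM in cluster 4, and Cfap126 had 862 and 577 CPM. Enpp2 was the other way, at 124 CPM in cluster 5 and 492 CPM in cluster 4, as was Igfbp2, at 619 and 1421 CPM. Outside these clusters Ttr was at 35741 CPM in cluster 1 and 20364 CPM in the unannotated barcodes of cluster 8, against 405873 and 396068 CPM in clusters 4 and 5.

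Clusters 3, 12 and 15 were rich in globin and held 699 unannotated barcodes (16.1%, 14.996 to 17.2%) and 0 annotated ones. Cluster 3 (646) was erythroid-like, with 78.7% of its UMIs from globin (46.7% without the 2 unidentified symbols), a median of 147.5 genes and of 4.10% mitochondrial UMIs, and 501 of its barcodes had 200 genes or fewer. Alas2 had 541 CPM there, against 7.52 CPM or less in clusters 1, 2, 4 and 5. Cluster 12 (30) was erythroid-like as well, with 86.3% globin (50.9% without those symbols) and Ube2c, a ubiquitin-conjugating enzyme of late mitosis, as its leading gene. Cluster 15 (23) had 36.5% globin (21.2%) beside T cell genes at 3307 CPM and is left unnamed; 15 of its barcodes were called doublets.

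The 6 further clusters held 2248 unannotated barcodes (51.7%, 50.2 to 53.2%; 28.9% at resolution 0.5), of which 97.3% had a mitochondrial share of 20% or more, and 15 annotated ones. Cluster 1 (977) had a median mitochondrial share of 55.0% and was led by Begain, Scd2, Gad1 and Shank2, genes of neurons and of lipid synthesis. The Purkinje cell list had 10817 CPM there, the highest of the 23 clusters, with Pcp2 at 4116 CPM and found in 944 of 977 barcodes, Itpr1, a calcium channel, at 1783 CPM and Pvalb, a calcium buffer, at 1194 CPM. Markers of Purkinje cells were not among those fixed for naming, so the cluster has no name here. Cluster 2 (734) had a median share of 55.8% and was led by Gstt4, Fam131b, Kcnh3 and Psd. Its neuron list had 2756 CPM, with Stmn2 at 1033 CPM in 495 of 734 barcodes, but none of that list was among its 10 leading genes, and it too is unnamed. Cluster 6 (280) was neuron-like, with 13 of 15 neuron genes at 3 or more UMIs and 4507 CPM in sum. Snhg11, Cbln3 and Neurod1 were among its leading genes. Neurod1 was at 601 CPM in cluster 6, against 20.4 in cluster 1, 209 in cluster 2 and 352 in cluster 20.

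Cluster 7 (239) was led by the myelin genes Mag, Mog, Cldn11 and Ugt8, yet its astrocyte list, at 7435 CPM, stood above its oligodendrocyte list, at 6232 CPM. The myelin signal sat in few barcodes: 104 Mag UMIs came from 6 of 239 and 127 Cldn11 UMIs from 12, whereas Slc1a3 was found in 183 and Aldoc, an aldolase of astrocytes and Purkinje cells, in 215. When unannotated barcodes were clustered alone, 214 of the 239 fell into a cluster of 473 barcodes with 6255 CPM of astrocyte and 9037 CPM of Purkinje cell genes, and 9 into a cluster of 23 barcodes with 29069 CPM of oligodendrocyte genes. Cluster 7 therefore keeps its number only. Cluster 20 (10 barcodes, median 6003.5 UMIs) was neuron-like, with Scg2, Tac3 and Gria2 leading and 11 of 15 neuron genes. Cluster 21 (8 barcodes) was endothelial-like, led by Cldn5, a tight junction protein of brain vessels, at 4313 CPM, with 13 of 14 listed genes.

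**Figure D5:**
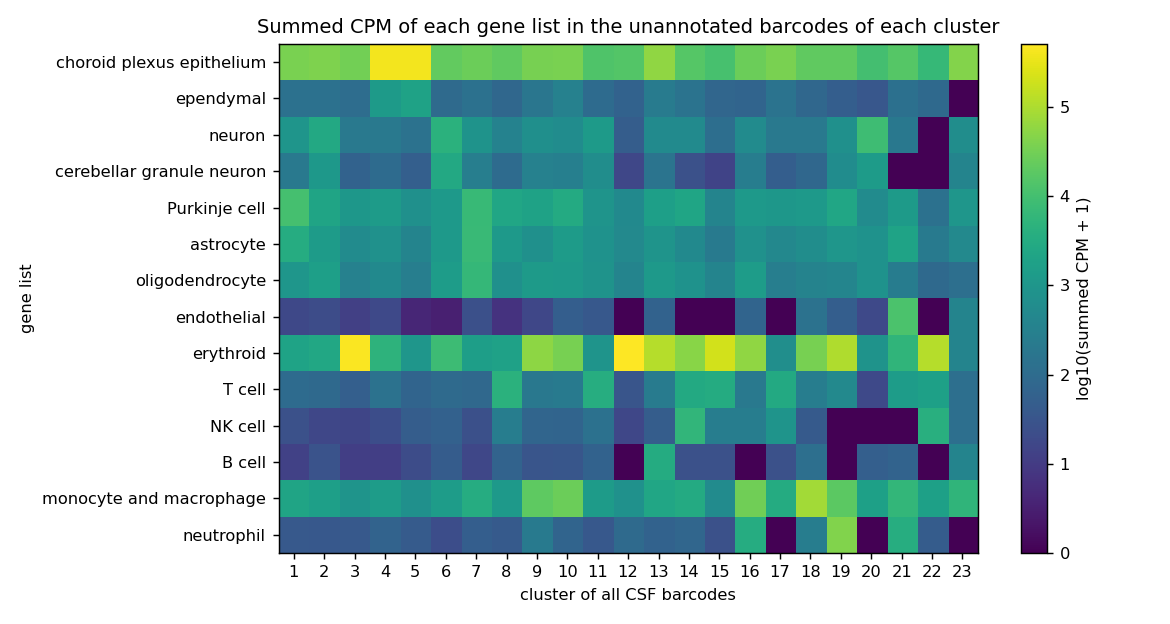
Summed CPM (colour, log10 of CPM + 1) of 14 gene lists in the unannotated barcodes of each of the 23 clusters. The choroid plexus list is highest in clusters 4 and 5, the erythroid list in clusters 3 and 12, and the T cell, NK cell, B cell, monocyte and neutrophil lists in clusters 8, 14, 13, 18 and 19.

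The 355 unannotated barcodes that lay with annotated leukocytes were spread over 12 clusters. Cluster 8, with 1212 of its 1219 annotated cells in the deposited cluster CD4 Tc, took 92, and cluster 9, with 405 of 417 in cluster myeloid3, took 67. Cluster 10, with 91 of 106 in cluster micro, took 40, cluster 13 (Bc1) 28, cluster 14 (NK) 28 and cluster 19 (granulo) 13. Cluster 11 was unlike the rest, with 35 unannotated and 11 annotated barcodes, all 11 of the latter in cluster CD4 Tc. Doublet calls there fell on 17 of the 35 and on 0 of the 11. Of the 355, 177 had a mitochondrial share of 20% or more, 176 lay within the bounds and 93 were called doublets by a caller that marked 3.86% of all unannotated barcodes and 1.55% of annotated cells. Globin took 0.06 to 19.8% of the unannotated UMIs in these 12 clusters.

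Clusters 8 and 9 had at least 50 barcodes on each side and were compared within themselves. Barcodes were placed in a cluster by their expression, so a smaller difference within it than over the library follows from the clustering and is no finding. In cluster 8, of 6200 genes tested, 579 (9.34%) were higher and 704 (11.4%) lower, with a median log2 ratio of -0.05. Of the T cell genes 0 of 18 were higher and 4 lower, with a median of -0.30; Cd3g had 889 CPM in unannotated and 1107 CPM in annotated barcodes. Mitochondrial genes were higher in 12 of 12 cases, with a median of 1.56. That follows in part from the bound on annotated cells, as 26 of the 92 unannotated barcodes had a mitochondrial share of 20% or more. Genes of Purkinje cells were higher in 5 of 5, with Pcp2 at 994 against 328 CPM, a ratio of 3.03 (2.56 to 3.58). Astrocyte genes were higher in 5 of 6 cases and neuron genes in 3 of 3. Of the choroid plexus genes 6 of 18 were higher and 2 lower, with a median of 0.57, and Ttr was at 20364 against 18372 CPM. The stress genes included Junb, an immediate early transcription factor, at 81.4 against 180 CPM, and 5 of 12 were lower. The 27 called doublets among the 92 were kept in these sums.

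In cluster 9, 132 of 3574 genes (3.69%) were higher and 711 (19.9%) lower, with a median of -0.43. Erythroid genes were higher in 6 of 6 cases, with a median of 5.72, and globin genes made up 92395 CPM in the 67 unannotated barcodes against 1581 CPM in the 417 annotated cells (53746 against 1012 CPM without the 2 unidentified symbols). Lyz2 had 8866 against 14821 CPM, short of 2-fold, and class II genes were lower in 4 of 5 cases, with Cd74 at 385 against 899 CPM. With mitochondrial, ribosomal protein and haemoglobin genes left out of the total, 260 genes were higher and 350 lower. Doublet calls, 20 of 67 unannotated and 16 of 417 annotated barcodes, differed with this result, and their part was not tested.

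A single barcode carried most of the mast cell signal. In the mast cell and basophil list 4 of 5 genes were higher, with Cma1, a chymase of mast cells, at 146 against 3 UMIs, but 145 of the 146 came from 1 barcode in cluster 17, as did 245 of the 405 UMIs (60.5%) of the whole list on the unannotated side. It had 2322 UMIs, 832 genes, a mitochondrial share of 3.06%, 24 UMIs of Cpa3, a mast cell carboxypeptidase, 141 of Mcpt8l2 and 63 of Mcpt8. Hdc, higher with 79 against 14 UMIs, and Kit, with 54 against 24, had 0 UMIs in that barcode.

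Barcode sequences shared between libraries were few on both sides. Of the unannotated CSF barcodes 126 (2.90%) had a sequence that also occurred in another rat library, and of the annotated cells 67 (2.13%). Without them 1972 genes were higher and 4387 lower.

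The other rat libraries left far fewer barcodes unannotated: 48 in CNS (1.32%), 115 in blood (3.50%), 83 in choroid plexus (3.52%), 241 in dura (4.64%) and 279 in pia (6.46%). Their median mitochondrial share was 1.14 to 8.21%, against 32.0% in CSF. Globin took 44.0% of the unannotated UMIs in blood and 5.26% in dura, against 14.2% in CSF; without the 2 unidentified symbols these were 27.7%, 3.47% and 8.41%. Ttr took 5.82% of unannotated and 0.38% of annotated UMIs in the choroid plexus library, and 0 of 370641 unannotated UMIs in blood. With 1 library per compartment, and sorting that differed between them, these shares cannot be told apart from the handling of each sample.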

How the data were processed

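The deposited rat matrix gives UMI counts that were not normalized, made by the authors with Cell Ranger on Rnor_6.0 (version 3.1.0 per the submitters' processing notes, 3.0.2 per the file headers), and a deposited table of clusters; filters on barcodes are not given in the sources used here. Counts were summed over barcodes and divided by their total (CPM). Genes needed 20 UMIs over both sides. Ratios carry exact conditional binomial 95% intervals and shares exact Clopper-Pearson ones; where a group had 0 UMIs, 3 took their place. Intervals cover counting error only. Shares with a UMI are hypergeometric expectations at 250 UMIs. Clusters came from scanpy 1.11.5 (2000 variable genes, 20 components, 15 neighbours, Leiden resolution 1); doublets, called with scrublet, were kept. TMM used edgeR 4.0.16. The ratio was also run on simulated counts with Poisson error only, the error that its interval assumes. That run had no variation between barcodes, so it cannot show how well the intervals hold for these data. Named genes are Ttr, the 12 highest and 12 lowest by interval bound, up to 4 leading members of each list and 5 leading genes of each cluster; others that the text singles out were chosen after their values were seen. Members and lists were chosen with earlier results of these data known, and 6 lists were added after these values were seen. Gene symbols are those of the files, and no sequence was read.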

Additional observations from a re-analysis of the deposited data

How the results depend on the processing

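No paired analysis was possible because both sides came from 1 library, with no replicate. The genes at least 2-fold higher numbered 3489 and those lower 1801 without mitochondrial genes, globin genes and Ttr in the total, an alternative chosen after seeing the data, and 2699 were lower with TMM scaling; against 1982 and 4415, these were the only counts over all genes to move by over 1.5 times among 11 alternatives. Restricting the unannotated side to the 1338 barcodes within the bounds, also chosen after seeing the data, gave 1614 higher and 3340 lower; there 1 of 10 Purkinje cell genes, 2 of 9 astrocyte genes, 8 of 13 neuron genes and 26 of 26 choroid plexus genes were higher. Leaving the 2 symbols without a given identity out of the globin list, chosen after seeing the data, gave 8.41% of unannotated UMIs in place of 14.2%. None of the 25 genes named by rank or as Ttr changed sign. List medians changed sign in 8 of 369 values: endothelial (0.32) and skeletal muscle (0.14) without mitochondrial genes, globin genes and Ttr, skeletal muscle (0.13) at 10 UMIs, mitochondrial genes (-0.18) within the bounds, and Hoxb4 with TMM (0.35), without mitochondrial, ribosomal protein and haemoglobin genes (0.054), within the bounds (0.87) and without mitochondrial genes, globin genes and Ttr (0.76). The share of unannotated barcodes with a Ttr UMI was 88.2% thinned to 100 UMIs, 99.7% at 500 and 100% not thinned. At Leiden resolution 0.5, 31.8% of unannotated barcodes lay in clusters with at least 10 annotated cells and 28.9% in the clusters that were rich neither in Ttr nor in globin, against 8.16% and 51.7%; 1 cluster of 1000 unannotated barcodes then held 10 annotated ones. Ttr-rich clusters held 23.8 to 24.1% and globin-rich ones 15.5 to 16.7% at every clustering tried. Within cluster 9, 260 genes were higher and 350 lower without mitochondrial, ribosomal protein and haemoglobin genes. With 1 library, depth sets only the counting error, and variation between rats was not measured.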
